A study of Saccharomyces cerevisiae with 2 samples.

Results

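The values below are those of 59 budding yeast genes of the ubiquitin system: ubiquitin ligases (E3), ubiquitin-conjugating enzymes (E2), deubiquitinases and the segregase Cdc48 with its partners. They were listed by name and function, with earlier results of these data known, from 5094 genes probed on the arrays, and each was sought through the gene symbol that the platform annotation pairs with a probe. Probes were listed for 57 of the 59, and 45 had a value on both arrays. The screen was a genetic interaction mapping (GIM) screen in *Saccharomyces cerevisiae*, in which a pool of barcoded mutants is crossed with a query deletion and the abundance of each double mutant is read from its barcode. Per the labels' protocols, the pool was of DAmP strains, in which a marker inserted behind the coding sequence makes the transcript less stable. The haploid double mutants, of BY4742/BY4741 background, grew for 18 generations with G418 and nourseothricin. Barcodes amplified from genomic DNA with a Cy3 primer (query pool) and a Cy5 primer (reference pool) were hybridised together to a 2-colour array, and 2 screens, which the series text calls independent, gave 2 arrays of a single group.

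The query is given as *PIH1* in the titles and as *RSA1* in the descriptions and source names. Pih1 is a subunit of the HSP90 co-chaperone R2TP, and Rsa1 is an assembly factor of box C/D small nucleolar ribonucleoproteins that works with it. The ratios of neighbouring genes served as the check: 33 genes within 50 kb of *PIH1* had a median log2 ratio of -1.02 (-1.16 on array 1 and -0.91 on array 2), while 42 genes within 50 kb of *RSA1* had a median of 0.04. Double mutants of linked loci seldom arise in a cross, so a low ratio beside *PIH1* is the basis for reading the values as query pool over reference pool; this direction is likely rather than stated. None of the 59 genes lay within 100 kb of either locus (0 of 59). The dyes were not swapped, so an effect of the query cannot be told apart from an effect of the dye or of the reference pool. The labels name no separate cultures, and p-values measure only the spread between these 2 arrays. The arrays differed in scale, with an SD over 4048 genes of 0.63 on array 1 and 1.21 on array 2, and correlated across these genes, which are not independent replicates, with r = 0.762. Probes name genes only, so each value is called the value of a gene, whatever its allele.

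Ubiquitin is passed from an activating enzyme (E1) to an E2 and then, with the help of an E3 that selects the substrate, onto a protein. HECT ligases take ubiquitin onto their own cysteine first, whereas RING ligases, among them the multisubunit SCF and the anaphase-promoting complex (APC), hold the loaded E2 beside the substrate. Chains of ubiquitin direct many proteins to the proteasome, deubiquitinases take ubiquitin off again, and Cdc48 pulls ubiquitinated proteins out of membranes and complexes.

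Low ratios were found for the ligase genes *TOM1* and *SSM4*, the E2 gene *UBC7*, the chain-elongation factor gene *UFD2* and the deubiquitinase gene *UBP13*. High ratios were found for the deubiquitinase gene *UBP3* and its cofactor gene *BRE5*, the proteasomal deubiquitinase gene *UBP6*, the E2 gene *UBC4* and the APC activator gene *CDH1*. These were the members at or beyond 1 log2 unit with the same sign on both arrays, 5 on each side of 45 (11.1% each). Of all 4048 genes tested, 2.03% reached the low limit on both arrays and 6.4% the high one. The median of the members was 0.05, against -0.01 for all genes, and 18 of 45 (40%) stayed within 0.5 of 0 on both arrays, against 53.9% of all genes. Counted by rank instead, which leaves out the difference in scale, 6 members (13.3%) were among the lowest 5% of genes on both arrays, against 2.67% of all genes. These were the 5 low genes and *UFD4*. By the same measure 2 members, *UBP3* and *UBP6*, were among the highest 5% on both arrays (4.44% of members, 3.41% of all genes).

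**Figure D1:**
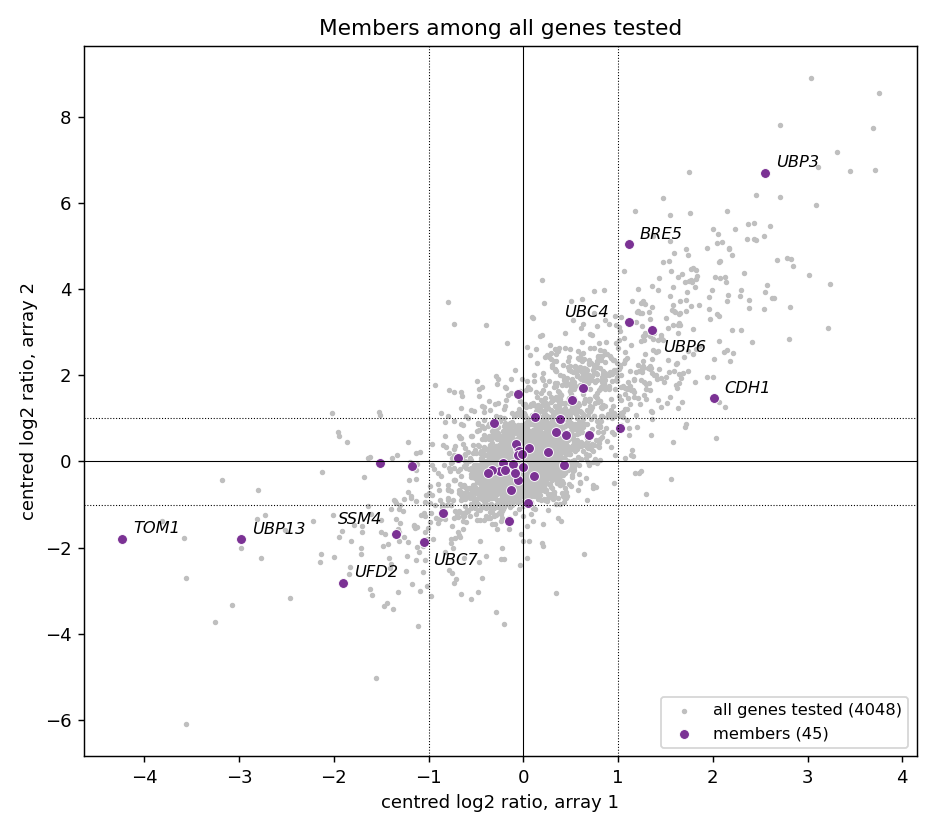
Each point is a gene with a value on both arrays, placed by its centred log2 ratio on array 1 (horizontal axis) and on array 2 (vertical axis); members are purple, all 4048 genes tested are grey, and dotted lines mark 1 log2 unit. The 5 labelled members at the lower left and the 5 at the upper right were beyond the dotted lines on both arrays.

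No member passed the test. Centred ratios were tested against 0 with limma, adjusted by Benjamini-Hochberg over all genes, and 0 of 45 members and 0 of 4048 genes (0%) were called at 0.05. The smallest adjusted p over all genes was 0.227, and the 10 members above had adjusted p from 0.227 (*UFD2*, *SSM4* and *CDH1*) to 0.333 (*BRE5*). At an unadjusted p under 0.05 there were 13 members (28.9%) against 16.7% of all genes. Scaling decided the calls. With the arrays brought to the same median absolute deviation, 8 members (17.8%) passed, against 11.3% of all genes. Of these, 4 were higher (8.89%, against 8.97% of all genes) and 4 lower (8.89%, against 2.3%). With quantile normalization 9 members (20%) passed, against 12.2% of all genes, 4 of them higher (8.89%, against 9.91%) and 5 lower (11.1%, against 2.25%). *UBP3*, *UBP6*, *UBC4* and *CDC26* on the high side and *UFD2*, *SSM4*, *UBC7* and *UFD4* on the low side were called under both scalings, and *UBP13* under quantile normalization alone. *TOM1*, *CDH1* and *BRE5* were called under neither. The word "called" is used below only of these scaled fits. For a single gene, the smallest p that an exact two-sided permutation of signs allows with 2 arrays is 0.5.

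**Figure D2:**
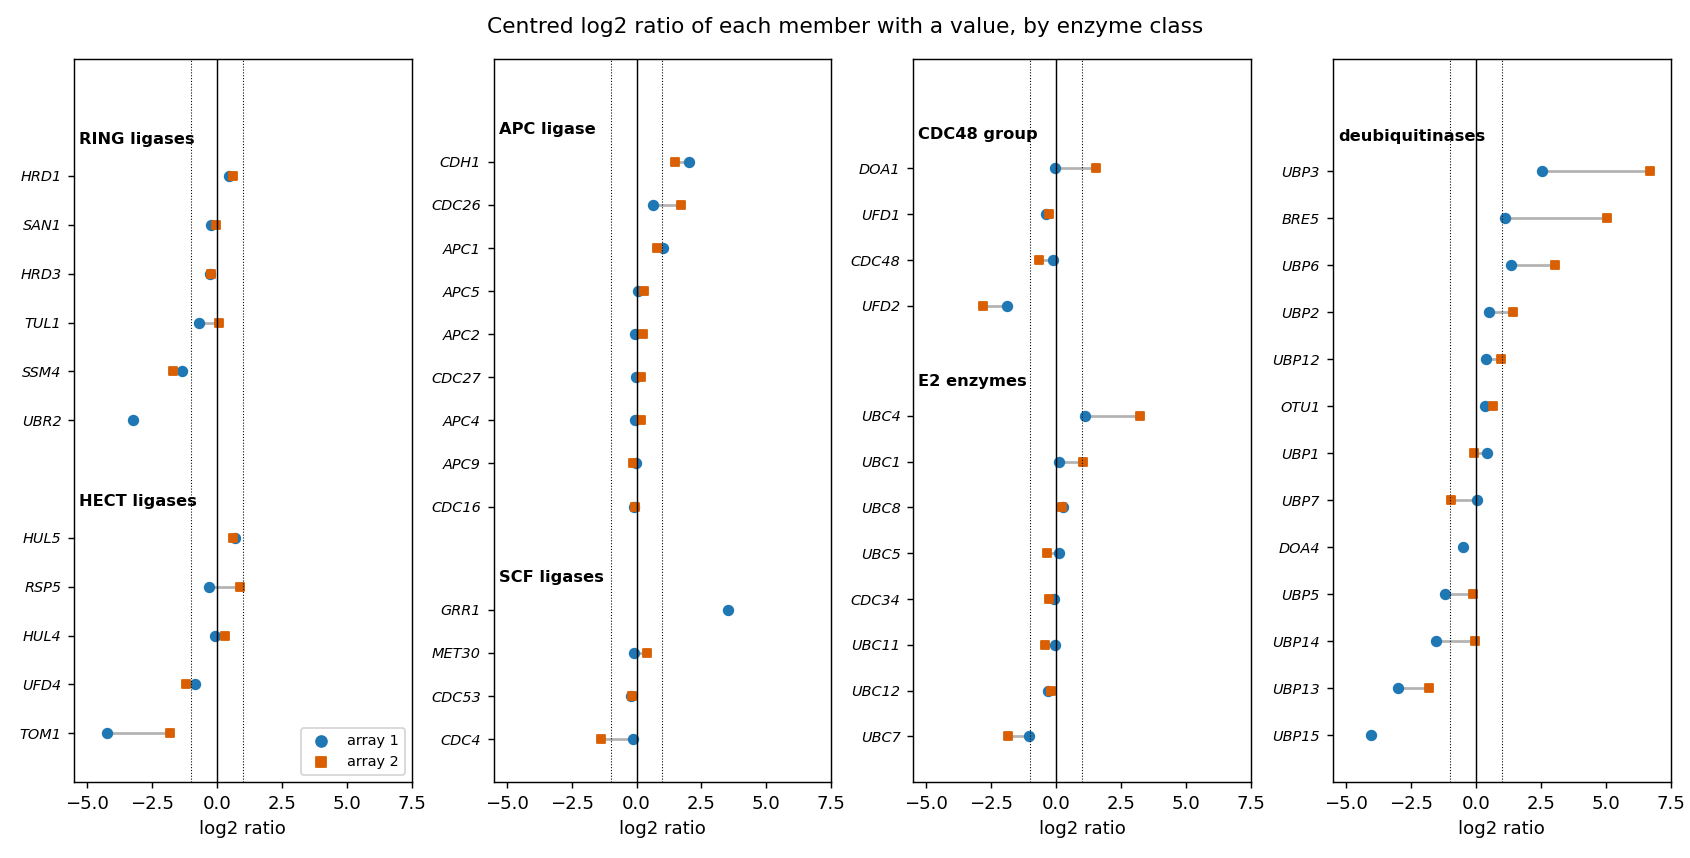
Centred log2 ratio (horizontal axis) of the 49 members with a value on at least 1 array, in blocks by enzyme class and ordered by mean; blue circles are array 1, orange squares array 2, and a grey line joins the arrays of a gene. Of the 45 members tested, 26 (57.8%) lie within 1 of 0 on both arrays, against 76.2% of all genes tested. *UBP3* and *BRE5* lie far to the right with the larger value on array 2. *TOM1* and *UBP13* lie far to the left with the larger deviation on array 1.

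Among the HECT ligases, *TOM1* (YDR457W) had the lowest ratio of any member tested. Tom1 is a nuclear ligase that acts on excess histones and on unassembled ribosomal proteins, among other substrates. It stood at -4.24 on array 1, the lowest of all 4048 genes there, and at -1.79 on array 2, rank 77 from the lowest. Its 4 probes ran between -4.73 and -4.0 on array 1 and between -2.08 and -1.55 on array 2, so the probes within an array lay closer together than the arrays. The mean was -3.01 ± 1.73 (SD, n = 2, as for every mean ± SD here), or 8.08-fold lower, with an adjusted p of 0.251. *UFD4* (YKL010C), the ligase of the ubiquitin fusion degradation (UFD) pathway, was just short of the limit at -0.85 and -1.19 (mean -1.02 ± 0.24). The other HECT genes were *HUL5*, whose product extends chains at the proteasome, at 0.65 ± 0.06, *RSP5*, the essential ligase of plasma membrane protein sorting, at 0.29 ± 0.85, and *HUL4* at 0.12 ± 0.25. *RSP5* and *HUL4* were negative on array 1 and positive on array 2. The 2 probes of *RSP5* had opposite signs on array 1 (0.14 and -0.76), and *HUL4* rested on a single probe with values. The class median was 0.12 over its 5 genes.

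RING ligases of the endoplasmic reticulum (ER) and nucleus had ratios on both sides of 0. *SSM4* (YIL030C) encodes Doa10, which resides in the ER and inner nuclear membrane and recognises degrons on the cytosolic or nuclear side. It stood at -1.35 on array 1 and -1.70 on array 2, and its mean was -1.52 ± 0.25 (2.87-fold lower). Its 2 probes differed little on either array, from -1.39 to -1.30 on array 1. *HRD1*, the ligase for misfolded proteins of the ER lumen and membrane, stood on the other side of 0 at 0.45 and 0.62 (mean 0.54 ± 0.12), and *HRD3*, its partner, at -0.23 ± 0.02. The nuclear quality control ligase gene *SAN1* was at -0.13 ± 0.12, and the Golgi ligase gene *TUL1* at -0.30 ± 0.54, negative on array 1 and positive on array 2. *UBR2*, a ligase gene for the proteasome gene activator Rpn4, was listed on array 1 alone, at -3.24 from a single probe. *UBR1*, of the N-degron pathway, and *SLX5* and *SLX8*, of the SUMO-targeted ligase, had probes but no value.

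SCF genes with values on both arrays lay near 0 apart from *CDC4*. The cullin gene *CDC53* stood at -0.20 and -0.19, the most even pair of values among the members. Among the genes of the F-box proteins, which select substrates, *MET30* was at 0.17 ± 0.35, and *CDC4* at -0.15 on array 1 and -1.38 on array 2 (mean -0.77 ± 0.87). *GRR1*, the F-box gene of glucose signalling and G1 cyclin turnover, had a value on array 1 alone, 3.52 from a single probe. The RING subunit gene *HRT1* had probes but no value.

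The APC brings about anaphase and mitotic exit through the turnover of securin and mitotic cyclins. Of its 9 tested genes, 6 lay within 0.5 of 0 on both arrays, as did 53.9% of all genes, and the others were above 0. At 9 genes this count is close to that share. *CDH1* (YGL003C), the activator of late mitosis and G1, stood at 2.01 on array 1 and 1.47 on array 2. Its 2 probes agreed within 0.2 log2 units on each array, its mean was 1.74 ± 0.38 (3.33-fold higher), and it was the only member of the high group with the larger value on array 1. *CDC26* (YFR036W), encoding a small subunit that stabilises the complex, was at 0.63 and 1.71 (mean 1.17 ± 0.76), just short of the limit on array 1. *APC1*, the scaffold gene, stood at 1.02 and 0.78, but its 2 probes disagreed: the first gave about 0 (0.04 on array 2) and the second 2.04 and 1.52. The other 6 genes tested, *APC2* (0.10), *APC4* (0.05), *APC5* (0.18), *APC9* (-0.07), *CDC16* (-0.08) and *CDC27* (0.08), all had values within 0.5 of 0 on both arrays. *APC11*, *CDC23* and the activator gene *CDC20* had probes but no value.

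E2 genes were led by *UBC4* on the high side and *UBC7* on the low side. *UBC4* (YBR082C), an E2 of bulk protein turnover and stress tolerance, stood at 1.12 on array 1 and 3.23 on array 2 (mean 2.17 ± 1.49, 4.51-fold higher). Its 4 probes were all positive on array 1, from 0.86 to 1.35, and 3 of them had a value on array 2, at 1.99, 3.83 and 3.86. *UBC5*, whose product is nearly identical and shares its substrates, stood at 0.11 and -0.35. *UBC4* was thus above *UBC5* on both arrays, by 1.0 and by 3.58 (mean difference 2.29 ± 1.82). *UBC7* (YMR022W), the E2 of ER-associated degradation, had a single probe, at -1.05 on array 1 and -1.87 on array 2 (mean -1.46 ± 0.58). *UBC1*, which extends chains for the APC, was at 0.59 ± 0.65. *UBC8*, *UBC11*, *CDC34* (the E2 of SCF) and *UBC12*, which conjugates the ubiquitin-like protein Rub1 to cullins, lay between -0.26 and 0.25. *UBC6*, encoding the other E2 of Doa10, had no probe.

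Deubiquitinases, counted with the Ubp3 cofactor gene *BRE5*, had the widest range of the classes, from -2.39 to 4.63. They also had the highest median, 0.51 over 11 genes, with 3 high and 1 low. This median depended on a few genes that differed most between arrays: without the genes whose arrays differ by over 2 log2 units, *UBP3* and *BRE5*, it was 0.18. The separate list of other deubiquitinases and their partner genes, 10 of them tested, had a median of -0.23, with 0 high and 1 low. *UBP3* (YER151C) stood at 2.55 on array 1 and 6.71 on array 2, ranks 24 and 10 from the highest of 4048. The 2 probes of the gene were close, 2.54 and 2.56 on array 1. Its mean was 4.63 ± 2.94 (24.8-fold higher), with an adjusted p of 0.256. *BRE5* (YNR051C), whose product binds Ubp3 and is needed for its activity, stood at 1.12 and 5.04 from a single probe with values (mean 3.08 ± 2.78, 8.44-fold higher). Both genes of this complex were thus high on both arrays and far higher on array 2. *UBP6* (YFR010W), the deubiquitinase of the proteasome cap, was at 1.36 and 3.04 (mean 2.20 ± 1.19, 4.6-fold higher). Its 2 probes lay apart on array 1, at 0.80, short of the limit, and 1.91. On array 2 they were at 2.66 and 3.43.

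*UBP13* (YBL067C) was the low deubiquitinase gene, at -2.98 on array 1 and -1.81 on array 2, ranks 10 and 75 from the lowest. Its mean was -2.39 ± 0.83 (5.25-fold lower), from 2 probes on array 1 and 1 on array 2. *UBP9*, its duplicate gene, stood at 0.09 and -0.20, so *UBP13* was lower by 3.07 and by 1.61 (mean difference -2.34 ± 1.04). The remaining deubiquitinase genes on the positive side were *UBP2*, which opposes Rsp5 (0.51 and 1.44), *UBP12* (0.39 and 0.98) and *OTU1*, which binds Cdc48 (0.35 and 0.68), with *UBP1* at 0.18 ± 0.35. On the negative side *UBP14*, which takes apart free ubiquitin chains, was at -1.52 on array 1 and -0.04 on array 2, and *UBP5* at -1.17 and -0.10. Both were low on array 1 alone. *UBP7* was at 0.05 and -0.96, and its duplicate gene *UBP11* at -0.09 and 0.10. *UBP15* stood at -4.03 on array 1, from 2 probes at -4.12 and -3.93, and had no value on array 2. *DOA4*, which recovers ubiquitin at endosomes, was likewise listed on array 1 alone (-0.51), and *UBP10*, the histone H2B deubiquitinase gene, had no probe.

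**Figure D3:**
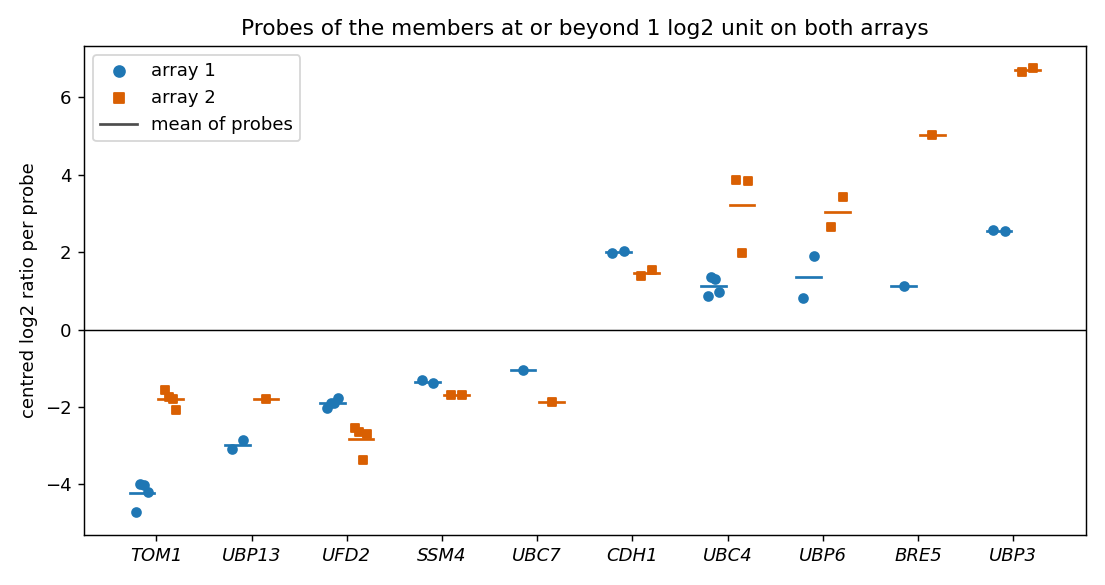
Centred log2 ratio of each probe (vertical axis) for the 10 members at or beyond 1 log2 unit on both arrays, ordered by mean; blue circles are probes on array 1, orange squares probes on array 2, and bars mark the mean of a gene's probes. The 4 probes of *TOM1* lie between -4.73 and -4.0 on array 1 and between -2.08 and -1.55 on array 2, and *UBC7* and *BRE5* rest on a single probe per array.

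In the Cdc48 group the low gene was *UFD2* (YDL190C), a U-box ligase that lengthens ubiquitin chains on substrates of Cdc48. It stood at -1.90 on array 1 and -2.82 on array 2, ranks 28 and 23 from the lowest. All of its 4 probes were below -1.7 on both arrays, from -2.04 to -1.77 on array 1, and its mean was -2.36 ± 0.65 (5.13-fold lower). *CDC48* itself was at -0.13 and -0.67 (mean -0.40 ± 0.38), and *UFD1*, of the Ufd1-Npl4 cofactor, at -0.38 and -0.26. The 4 probes of *CDC48* had both signs on array 1, at 0.15, 0.24, -0.43 and -0.46. Only the last 2 had a value on array 2, and the mean over probes with a value on both arrays was -0.56. *DOA1*, a Cdc48 adaptor gene that influences the level of free ubiquitin, went the other way on array 2 (-0.06 and 1.56). *NPL4* had probes but no value.

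Known complexes and pathways were then read together, with partner genes added from a list of other ubiquitin pathway genes. For Doa10, the ligase gene *SSM4* (-1.35 and -1.70), the E2 gene *UBC7* (-1.05 and -1.87) and *CUE1* (-1.31 and -1.63), which encodes the ER anchor of Ubc7, were all below -1 on both arrays, within 0.1 log2 units of each other in the mean (-1.52, -1.46 and -1.47). Ubc7 and Cue1 also serve Hrd1. Genes of the Hrd1 complex that Doa10 does not share, *HRD1*, *HRD3*, *DER1* (-0.09 ± 0.09), *USA1* (0.43 ± 0.32) and *YOS9* (0.41 ± 0.13), had no value below -0.3 on either array. *SSM4*, the only measured gene here that serves Doa10 and not Hrd1, was thus below each of these 5 on both arrays. These partners were put together after the values were seen, and the difference was not tested. *UBX2*, listed with the Cdc48 cofactors and placed in neither group, stood on the other side of 0, at 1.35 and 0.61 from a single probe.

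In the UFD pathway, the ligase gene *UFD4* and the chain-elongation factor gene *UFD2* had means of -1.02 and -2.36. *UFD1* (-0.32) and *CDC48* (-0.40, with probes of both signs on array 1) were also negative on both arrays and closer to 0. *DOA1*, which was first named UFD3, was at -0.06 on array 1 and 1.56 on array 2 (mean 0.75 ± 1.14). *DUF1* (-1.41 and -2.47, mean -1.94 ± 0.75), which encodes a WD-repeat partner of Ubp9 and Ubp13, was low along with *UBP13*, while *UBP9* was not. The value of *DUF1* rested on a single probe, and this grouping too was made after the values were seen.

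**Figure D4:**
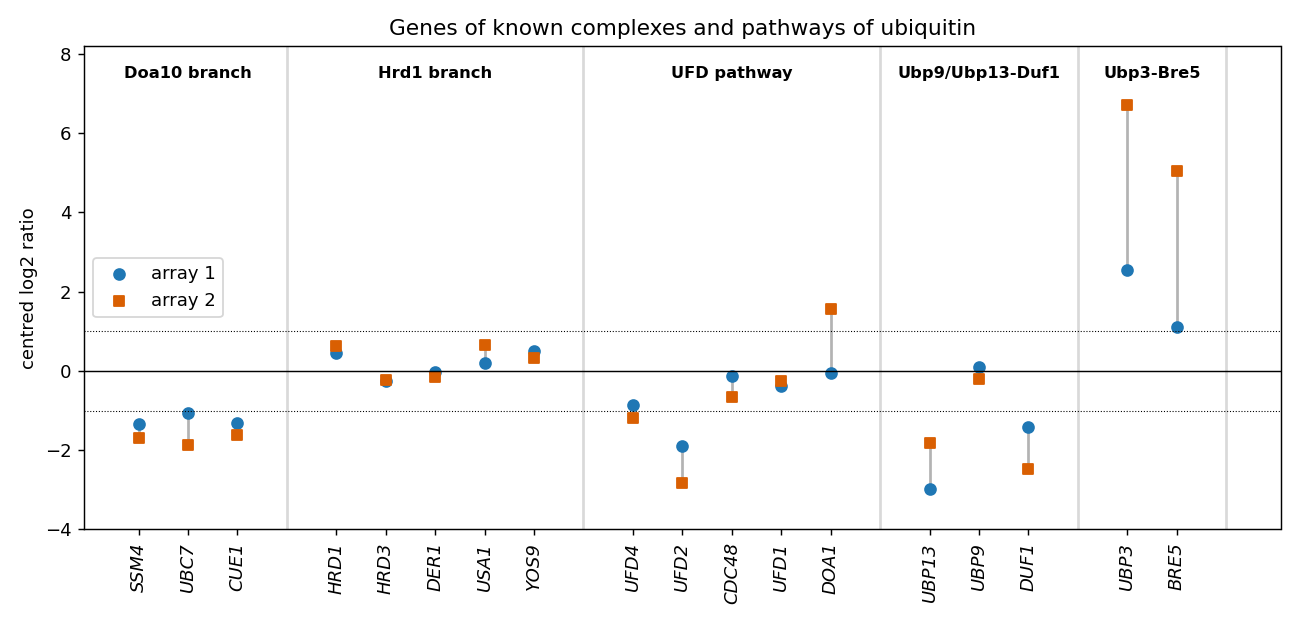
Centred log2 ratio (vertical axis) of genes grouped by known complex or pathway; blue circles are array 1, orange squares array 2, and dotted lines mark 1 log2 unit. *SSM4*, *UBC7* and *CUE1* of the Doa10 branch lie below -1 on both arrays, the Hrd1 genes lie between -0.3 and 0.7, *DUF1* lies beside *UBP13*, and *UBP3* and *BRE5* are both above 1.

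Over the wider list of 124 ubiquitin and SUMO pathway genes, 98 were tested, and their counts were close to those of all genes: 5 at or above 1 on both arrays (5.1%, against 6.4%) and 2 at or below -1 (2.04%, against 2.03%). The low ones were *CUE1* and *DUF1*. The high ones were *LGE1* (3.04 and 8.90), which acts with Bre1 in histone H2B ubiquitination, the polyubiquitin gene *UBI4* (1.21 and 1.47), *RPL40B* (1.49 and 1.85), which encodes ubiquitin fused to a ribosomal protein, and *RTT101* (1.07 and 1.21) and *MMS1* (1.11 and 1.48), the cullin and adaptor of a ligase of replication stress. *RPL40A*, which encodes the same fusion as *RPL40B*, stood at -1.17 and -0.12. The E1 gene *UBA1* was near 0 (0.05 ± 0.20), and *RAD6* and *BRE1* had probes but no value.

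Members were also sorted by whether yeast needs the gene to live. Of the 18 members known as essential, 13 were tested, and 0 of them were at or beyond 1 on both arrays, where 8.42% of all genes were; at 13 genes this count is close to that share. Their means ran from -0.77 (*CDC4*) to 0.90 (*APC1*), with a median size, sign left out, of 0.18. All of the 10 members beyond the limit were among the 32 tested members that are not essential, whose median size was 0.67. The difference between these sets was not tested. The essential genes were sorted from textbook knowledge after the values were seen, and whether the kind of allele differed between these sets was not tested. The 5 essential members that were not tested, *HRT1*, *APC11*, *CDC23*, *CDC20* and *NPL4*, had no value on either array.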

How the data were processed

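The deposited table holds a log ratio of both channels per probe, read here as log2 from its range (-4.79 to 3.91 on array 1, -6.36 to 9.40 on array 2), which is too wide for log10; a natural log would multiply every value by a constant. How the authors made it (background, normalization, filter on dim spots, base, centring and direction) is not given in the sources used here. Precision is limited by the number of arrays. Of 15744 probes, 10998 had a value on array 1 and 10382 on array 2. The platform annotation gave 1 symbol for 13084 probes, several for 0 and none for 2660; of 5100 symbols, 5034 were current in the R64 gene table, 64 were synonyms of 1 gene and 2 were ambiguous and left out. Each array was centred on its median (-0.06 and -0.27), and probes were averaged per gene. Of 4196 genes with a value on both arrays, 148 within 100 kb of *PIH1* or *RSA1* were left out, and 4048 were fitted with limma 3.58.1 (R 4.3.3, intercept, eBayes) against 0. Spread of the reference pool enters only through the ratios and was not fitted apart. The fit was also run on simulated data whose 2 arrays had equal spread, unlike the real ones, so that run does not bear on the difference in scale. Python 3.11.15, numpy 2.4.6, pandas 2.3.3 and matplotlib 3.10.9 served for the rest. Every member with a value on both arrays was named, with array values for those at or beyond 1 log2 unit with 1 sign on both. Members and lists were chosen with earlier results of these data known.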

Additional observations from a re-analysis of the deposited data

How the results depend on the processing

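All 10 members at or beyond 1 log2 unit on both arrays kept their sign in each alternative run for them. They were chosen for having 1 sign at or beyond that limit on both arrays. Leaving out an array or the centring therefore could not change the sign. The number of members called by limma, 0 as centred, was 8 with equal median absolute deviations and 9 with quantile normalization, and stayed at 0 in the other 6 settings. Without the 4 members whose arrays differ by over 2 log2 units (*TOM1*, *UBC4*, *UBP3* and *BRE5*), 2 members rather than 5 were at or above 1, the median of the members was -0.071 and that of the deubiquitinases 0.18, by construction. With values not centred, the median was -0.12 for all members, -0.40 for RING ligases, -0.36 for SCF and -0.52 for the Cdc48 group; leaving out the centring lowers every gene of array 2 by 0.27. By single array, 6 to 9 members were at or above 1, and 7 at or below -1 on each. The median of the members was then -0.060 to 0.080, that of RING ligases -0.25 to -0.045 and that of SCF -0.19 to -0.15. With windows of 25 kb and 100 kb the *PIH1* region had medians of -1.22 and -0.61, and the *RSA1* region -0.021 and -0.0026; by single array these were -1.16 to -0.91 and -0.0029 to 0.031. With a limit of 0.8, chosen after the data were seen, the counts were 5 and 6. No paired analysis was possible because the arrays form a single group. Signal over background was not analysed here.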

Other observations

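Over the other lists of the ubiquitin system together, 75.5% of the genes tested were within 1 on both arrays, close to the 76.2% of all genes. Of the GID ligase, which degrades gluconeogenic enzymes when glucose returns, 6 genes were tested, and 5 were positive on both arrays, as were 34.7% of all genes tested: *VID28* (1.36 and 0.99), *VID24* (0.60 and 0.70), *VID30* (0.63 and 0.25), *RMD5* (0.34 and 0.53) and *GID8* (0.08 and 0.38), with *GID7* at -0.12 ± 0.08 (SD, n = 2). These genes were picked out after their values were seen. The E2 gene of this ligase, *UBC8*, stood at 0.25 ± 0.03.

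Of the 13 adaptor genes of Rsp5 tested, 10 (76.9%) were within 1 on both arrays, close to the 76.2% of all genes. The duplicate genes *BUL1* (-0.07 and 1.13) and *BUL2* (-0.29 and -1.24) lay farther apart on array 2 than on array 1. In the deubiquitinase module of the coactivator SAGA, *UBP8* stood at 0.67 and 1.93, and *SGF11*, from a single probe with values, at 0.76 and 1.51. Also of this module, *SGF73* had probes but no value and *SUS1* had no probe. Of 7 SUMO pathway genes tested, *SMT3*, which encodes SUMO, was the highest (0.83 and 1.06). Of its ligase genes, *SIZ1* (0.65 ± 0.06) and *NFI1* (0.52 ± 0.49) were positive on both arrays and *MMS21* (-0.29 and 0.05) was not, and *AOS1* and *ULP1* were negative on both (-0.15 ± 0.09 and -0.18 ± 0.07). *RKR1*, whose product marks stalled nascent chains on ribosomes, stood at -1.04 and -0.94, just short of the limit.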
